A study of Mus musculus with 18 samples.

Results

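Hox genes encode homeodomain transcription factors that give cells their position along the body axis. The 33 Hox genes on the array were followed through reprogramming of mouse cells to induced pluripotent stem cells (iPSC). They were every gene whose symbol in the platform annotation is Hoxa, Hoxb, Hoxc or Hoxd and a number, 33 of 17903 genes with 1 symbol. Cluster A had 9, cluster B 9, cluster C 7 and cluster D 8. They had 43 probe sets; for the 8 genes with more than 1, the probe set that was brightest on average across all 18 arrays was used. Left out were 3 antisense genes and 2 probe sets annotated to both Hoxd3 and Hoxd4.

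Hox genes lie in clusters in which the order along the chromosome follows the order of use along the body. Low paralog numbers act in the hindbrain and neck, middle numbers in the trunk, and high numbers in the lower trunk, distal limb and genital tract. Fibroblasts taken from different body sites keep different Hox combinations in culture, whereas in pluripotent cells the clusters are largely held silent by Polycomb proteins. The proteins bind DNA with Pbx, Meis and Pknox partners (TALE homeodomain cofactors), and retinoic acid, Wnt signals and Cdx factors act on the clusters in the embryo.

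The cultures were reprogrammed with OCK (Oct4, c-Myc and Klf4) from Tcf3 wt or Tcf3 ko cells, and 1 array per genotype was made on each of days 11, 15, 19, 22 and 26. Tcf3 is an older symbol of Tcf7l1, which encodes a repressor in Wnt signalling. The iPSC clones were 1 OSK (Oct4, Sox2 and Klf4) Tcf3 wt clone, 2 OSK Tcf3 ko clones and 2 OCK Tcf3 ko clones, with 1 array each. A partially reprogrammed OCK clone, labelled Tcf3 wt, was given a control siRNA (siCtrl, 1 array) or 1 of 2 siRNAs against Tcf3 (siTcf3-A and siTcf3-B, 1 array each) and was collected on day 2. The labels name neither the starting cell type nor separate cultures behind the arrays of a group, so a p-value covers the array-to-array spread alone, and that spread may be technical. The days of 1 genotype may come from 1 culture. The partial stage rests on 1 clone, and the 3 partial arrays are the same clone under different siRNAs. The stages used below pool genotypes and, for iPSC, factor sets: early cultures are days 11 and 15 (4 arrays), late cultures are days 22 and 26 (4 arrays), and there are 3 partial and 5 iPSC arrays. Cultures, partial clone and iPSC clones belong to different letters of the study's design, so stage and any difference in handling between those sets cannot be told apart.

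Values are log2 RMA signal with a floor at 5.64, the log2 of 50, which stands for any lower level. Each array had 12102 to 12499 genes above that floor. The labelled cell types were checked against marker genes. All 10 pluripotent markers were above the floor in every iPSC clone, with mean log2 signals between 12.04 and 12.41, and the partial clone had 8.14 to 8.30. Means of the 14 fibroblast markers were 12.95 to 13.05 in early cultures, 11.70 to 12.38 in late cultures, 8.75 to 9.23 in the partial clone and 6.77 to 7.83 in iPSC clones. In the iPSC clones 9 to 14 of the fibroblast markers were still above the floor, with Col1a1 at 6.42 to 8.50. Tcf7l1 was 9.06 to 9.90 in wt cultures, 8.10 to 9.48 in ko cultures, 10.68 in the OSK wt clone and 9.37 to 9.56 in the ko clones, so it was not at the floor in ko cells. The labels do not place its probes relative to the deletion, so it does not check the knockout.

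Of the 33 Hox genes, 28 were above the floor on at least 1 array and 11 on all 18. Hoxa4, Hoxb1, Hoxb7, Hoxd1 and Hoxd12 were at the floor on every array. Early cultures had 23 to 25 Hox genes above the floor per array, late cultures 21 to 23, the partial clone 17 or 18 and the iPSC clones 15 or 16. Hoxa2, Hoxc5 and Hoxc10 were above it on all 10 culture arrays and on no other, and Hoxb5 on 8 culture arrays. Hoxa13 was above it on the 3 partial arrays alone, and Hoxc13 on the 5 iPSC arrays alone. Signal ranged most over the 18 arrays for Hoxa9 (5.50 between the lowest and highest array), Hoxc8 (4.83), Hoxd8 (4.60), Hoxa5 (3.59) and Hoxa10 (3.48).

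**Figure D1:**
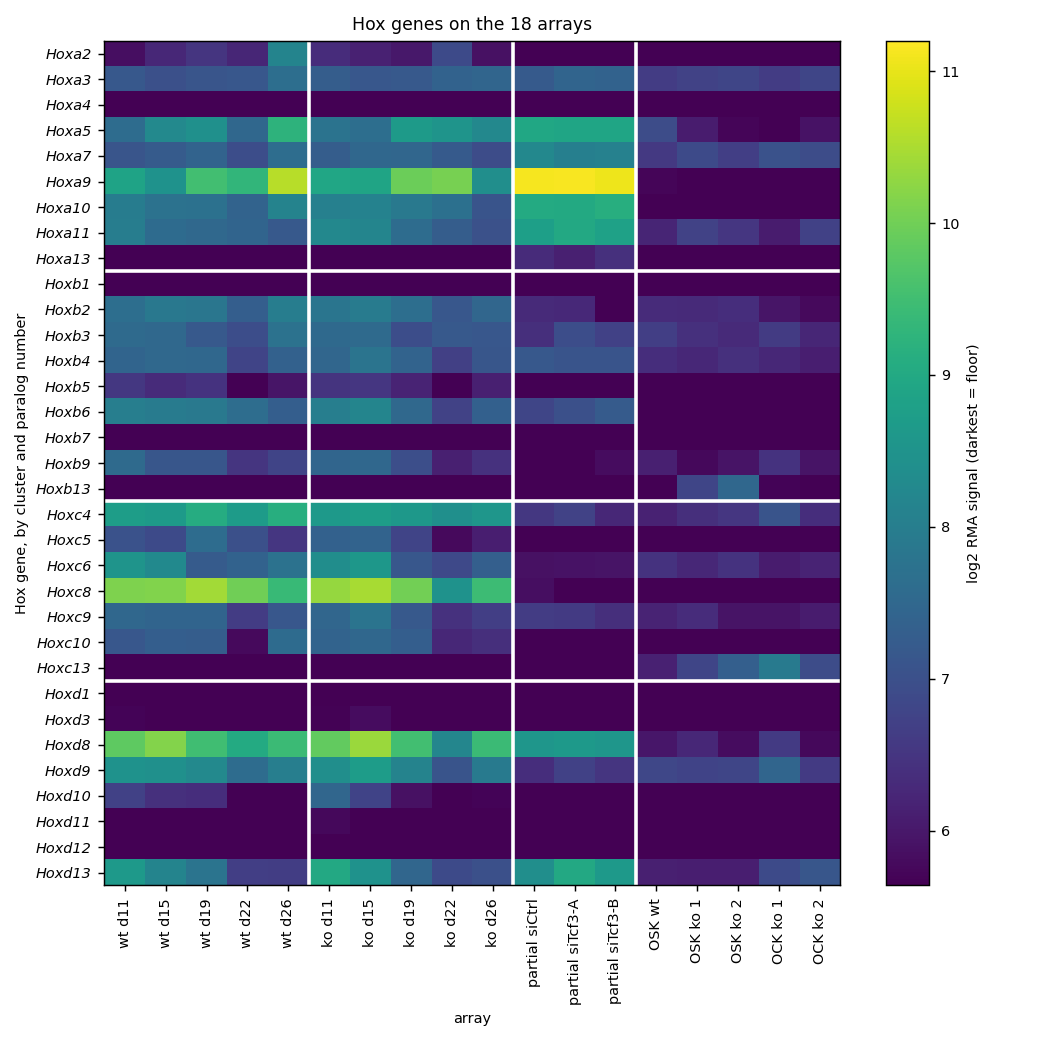
Log2 RMA signal of the 33 Hox genes (rows, by cluster and paralog number) on the 18 arrays (columns; wt and ko cultures by day, partial clone, iPSC clones); the darkest colour is the floor of 5.64. Most rows are brightest in the cultures and dark in the iPSC clones, Hoxa9 is brightest in the partial clone (11.06 to 11.14), and Hoxc13 is above the floor in the iPSC clones alone.

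Start-site windows of the members that set the partial clone apart are shown for the base composition and the motif letters of their promoters. Windows of 300 bases, from 250 before to 50 after a RefSeq start site (GRCm38.p6), were found for 19 of the 33 genes, 21 windows in all. They held 4 to 45 CpG pairs with a median of 15, against a median of 7 over all 32851 windows. Hoxa9 (chr6:52227321-52227620, minus strand) had 4 CpG, and 68.6% of all windows had at least as many. Hoxa13 (chr6:52260831-52261130, minus strand) had 45, which 1.93% of all windows reached, and Hoxd13 (chr2:74667975-74668274, plus strand) had 37, which 5.58% reached. CpG pairs are in capitals in these.
Hoxa9: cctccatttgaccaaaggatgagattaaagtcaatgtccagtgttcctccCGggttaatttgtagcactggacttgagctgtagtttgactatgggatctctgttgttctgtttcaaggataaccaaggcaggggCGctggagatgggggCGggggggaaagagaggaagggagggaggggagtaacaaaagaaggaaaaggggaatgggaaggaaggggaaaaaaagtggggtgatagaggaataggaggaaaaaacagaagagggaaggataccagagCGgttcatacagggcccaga
Hoxa13: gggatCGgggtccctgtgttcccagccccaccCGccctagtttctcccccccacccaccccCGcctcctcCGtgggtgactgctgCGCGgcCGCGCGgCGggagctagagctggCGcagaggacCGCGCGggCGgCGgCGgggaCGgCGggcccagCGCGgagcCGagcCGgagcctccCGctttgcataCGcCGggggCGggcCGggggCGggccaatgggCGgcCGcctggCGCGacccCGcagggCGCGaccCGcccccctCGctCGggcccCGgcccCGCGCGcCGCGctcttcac
Hoxd13: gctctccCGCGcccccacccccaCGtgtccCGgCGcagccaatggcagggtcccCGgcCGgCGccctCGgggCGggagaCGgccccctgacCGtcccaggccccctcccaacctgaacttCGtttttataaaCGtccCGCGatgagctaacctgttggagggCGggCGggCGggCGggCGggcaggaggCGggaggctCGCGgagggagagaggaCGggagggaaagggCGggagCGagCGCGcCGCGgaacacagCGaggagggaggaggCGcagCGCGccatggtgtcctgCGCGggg
The Tcf/Lef motif CTTTGAT, searched on both strands, was in 1 member window, that of Hoxd8 (chr2:74704365-74704664, plus strand), with 2 matches, in capitals below; 3.73% of all windows hold it.
Hoxd8: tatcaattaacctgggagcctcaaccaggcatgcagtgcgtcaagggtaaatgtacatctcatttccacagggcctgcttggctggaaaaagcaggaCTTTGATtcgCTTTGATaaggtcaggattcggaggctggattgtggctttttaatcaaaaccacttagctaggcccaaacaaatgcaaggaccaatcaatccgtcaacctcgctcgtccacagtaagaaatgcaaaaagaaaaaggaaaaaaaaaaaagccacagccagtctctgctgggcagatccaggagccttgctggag
The Pbx-Hox motif TGATTNAT was in windows of Hoxa2 and Hoxd11 and in 3.22% of all windows. A match describes the letters of a window and does not show binding, and these windows come from a build that the array files do not name.

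Of 25 Hox genes tested, 9 fell as OCK cultures went from day 11 to day 26, where 18.7% of all genes fell. The lowest p-values were those of Hoxd13, Hoxa11 and Hoxd10. Hoxd13, which patterns digits and the genital tract, was at 8.62, 8.16, 7.78, 6.67 and 6.65 in wt and at 9.0, 8.47, 7.47, 6.88 and 7.01 in ko on the 5 days. Both genotypes were lower on days 22 and 26 than on days 11 and 15, without overlap. The mean of the wt and ko slopes was -0.15 ± 0.017 log2 per day (SE, 10 arrays; limma adjusted p = 0.00304), or -2.21 over the 15 days. Hoxd10 of the same cluster, which acts in lumbar segments, went from 6.72 to the floor in wt and from 7.46 to 5.70 in ko (-0.10 ± 0.015 per day, adjusted p = 0.00466). Hoxa11, needed for the forearm bones and the uterus, went from 7.99 to 7.20 in wt and from 8.23 to 7.01 in ko (-0.068 ± 0.0085 per day, adjusted p = 0.00338). These 3 genes also passed in a straight line through the 5 day means, where each day counts once.

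None of the 25 Hox genes rose, where 18% of all genes rose. The other 6 that fell were Hoxb5 (-0.045 per day), Hoxb6 (-0.060), Hoxb9 (-0.075), Hoxc5 (-0.067), Hoxc6 (-0.085) and Hoxc9 (-0.058), genes that pattern the trunk. By paralog number, 0 of 7 genes numbered 1 to 4 fell, 4 of 8 numbered 5 to 8, and 5 of 10 numbered 9 to 13, without a test between these groups. By cluster, 1 of 7 tested in A, 3 of 6 in B, 3 of 6 in C and 2 of 6 in D fell. Calls depended on days. Without day 11 limma called 0 of the Hox genes and 0 of all genes. There, 3954 of 13374 genes had an unadjusted p under 0.05 by limma. Without day 15 it called 4 of 25 Hox genes, all as falls, where 7% of all genes fell. With the prior taken over all genes it called 4 of 33, where 9.57% of all genes fell. In the line through the day means it called 3 of 25, where 1.25% fell. Of 14 fibroblast markers 8 fell over the same days, as did 6 of 9 macrophage and blood markers. Of the other kinds, 10 of 12 neuronal, 8 of 10 pluripotent, 6 of 10 trophoblast and 4 of 7 neural progenitor markers rose. The part of these markers in the fall of the Hox genes was not tested. Fewer cells of a type and less RNA per cell cannot be told apart in these bulk samples.

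Hoxa9, Hoxa5 and Hoxa2 did not pass over the course. Hoxa9, a gene of the lower trunk and of blood progenitors, was at 8.87, 8.48, 9.52, 9.30 and 10.60 in wt and at 8.92, 8.88, 9.95, 10.06 and 8.39 in ko. It was higher on days 19 and 22 than on days 11 and 15 in both genotypes, and on day 26 wt had its highest and ko its lowest culture value. The slope over the course did not pass (0.060 ± 0.035 per day, limma adjusted p = 0.200), and without day 26 it did (0.093, adjusted p = 0.0304). Hoxa5, which acts in lung and neck, was at 7.60, 8.25, 8.43, 7.49 and 9.23 in wt and at 7.77, 7.66, 8.66, 8.51 and 8.24 in ko; it rose only when day 22 was left out. Hoxa2, a hindbrain and second arch gene, was between 5.85 and 6.89 on 9 culture arrays and at 8.15 on wt day 26, and it too rose only without day 22. Without day 26, Hoxa10, Hoxb3, Hoxd8 and Hoxd9 also passed, all as falls.

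**Figure D2:**
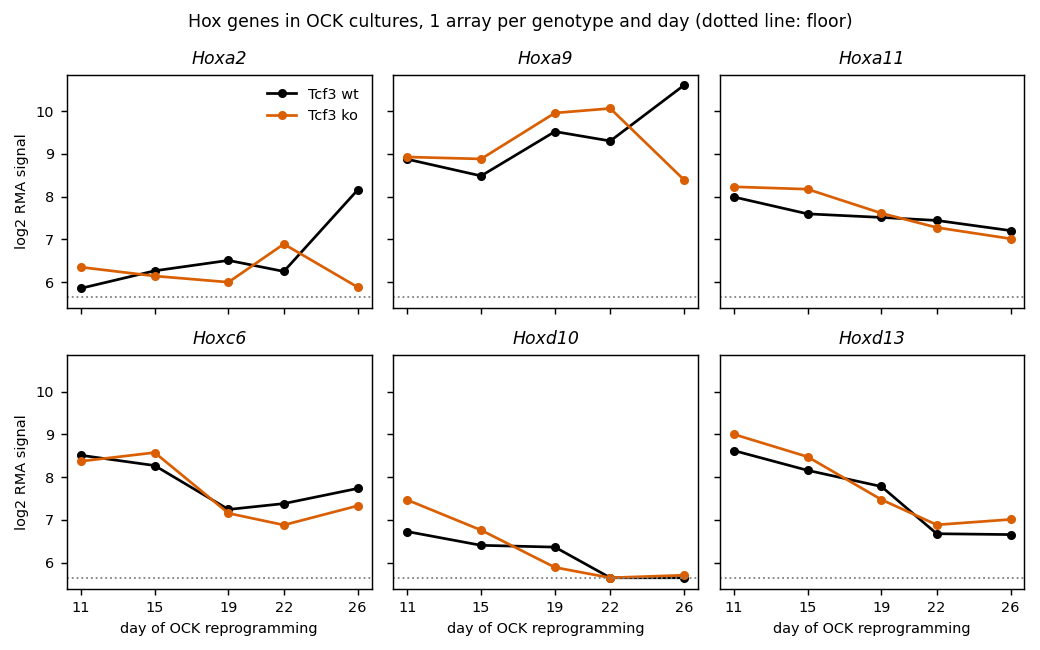
Log2 RMA signal (y axis) of 6 Hox genes in OCK cultures by day (x axis), 1 array per point, Tcf3 wt in black and Tcf3 ko in orange; the dotted line is the floor. Hoxd13, Hoxd10, Hoxa11 and Hoxc6 end lower than they begin in both genotypes, while Hoxa2 and Hoxa9 are highest in wt on day 26.

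Day 26 was also where the wt and ko cultures lay furthest apart in neuronal markers. The mean of 12 neuronal markers was 10.01 on wt day 26 and 7.12 on ko day 26, against 8.23 and 8.42 on day 22. Trophoblast markers lay the other way on day 26, with means of 6.50 in wt and 8.39 in ko. Pluripotent markers did too, at 8.61 and 9.67. The cofactors Meis1 and Meis2 had their highest signals of the study on wt day 26, 8.48 and 10.73. The part of these markers in the Hoxa2, Hoxa5 and Hoxa9 values of day 26 was not tested.

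Loss of Tcf3 was not accompanied by a called change of any Hox gene in these arrays. On matched days, a ko minus wt difference was called for 0 of 25 Hox genes and for 0% of all genes, with 452 of 13428 genes and 1 Hox gene, Hoxc4, at an unadjusted p under 0.05 (limma). Hoxc4 was at 8.73, 8.68, 9.08, 8.68 and 9.12 in wt and at 8.65, 8.74, 8.61, 8.42 and 8.57 in ko, lower in ko on 4 of 5 days (-0.26 ± 0.10, adjusted p = 1). The slopes of ko and wt differed for 0 of 25 Hox genes and for 0% of all genes by limma. An unadjusted p under 0.05 was found for 208 genes, Hoxa2 (-0.13 ± 0.054 per day) and Hoxa11 (-0.042 ± 0.017) among them. With day as a block 1101 genes were at that level, and 0 genes were called. The slope was lower in ko for 24 of the 25 Hox genes, with a median difference of -0.035 per day against 0.00017 over all genes, and on matched days 17 of 25 were lower in ko, with a median of -0.11 against 0.013. The genes were measured on the same arrays and are not independent, and these counts do not show that the genotypes are alike.

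The comparison of iPSC clones with early cultures asks how much of the Hox expression was left after reprogramming. Of 27 Hox genes tested, 22 were lower in the iPSC clones, where 33.6% of all genes tested were lower, and 1 was higher, where 41.8% were. Hoxa10, Hoxb5, Hoxb6, Hoxc5, Hoxc8, Hoxc10 and Hoxd10 were among the lower ones but entered the test through the early cultures alone. Hoxa2, Hoxd3 and Hoxd11, which were not called, entered in the same way, so the filter partly sets the count of lower genes. The median difference was -1.10 for paralogs 1 to 4, -1.95 for paralogs 5 to 8 and -1.50 for paralogs 9 to 13, and 0.085 over all genes. Lower were 6 of 7 tested genes in A, 6 of 7 in B, 6 of 7 in C and 4 of 6 in D.

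Hoxc8, Hoxd8 and Hoxa9 had the largest measured differences, though the floor caps several others. Hoxc8, which patterns thoracic vertebrae, was at 10.13, 10.31, 10.15 and 10.48 in early cultures and at the floor in all 5 iPSC clones, a signal at least 24.7-fold lower (limma adjusted p = 1.72e-12). Hoxd8 was at 9.83 to 10.36 in early cultures and at 5.76, 5.82, 5.99, 6.27 and 6.59 in the iPSC clones, a difference of -3.97 ± 0.22 (adjusted p = 3.39e-11). The groups did not overlap, and Hoxd8 stayed above the floor in every clone. Hoxa9 was at the floor in 4 iPSC clones and at 5.71 in the OSK wt clone (-3.13 ± 0.29, adjusted p = 2.41e-08), so the size of its fall is a lower limit for this probe set. With the mean of its probe sets the difference was -1.86 ± 0.24. Hoxa10, needed in the uterus and the lumbar spine, and Hoxb6, a thoracic gene, were at the floor in all 5 clones, at least 5.01-fold and at least 5.27-fold lower than in early cultures (adjusted p = 1.49e-10 and 4.65e-11).

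Hoxc4 (-2.19), Hoxc6 (-2.15) and Hoxd13 (-2.10) fell but had signals above the floor in every clone, 6.18 to 7.09, 6.07 to 6.46 and 6.10 to 7.13. Hoxb2, Hoxb3, Hoxb4, Hoxb9, Hoxc9 and Hoxd9 had differences of -1.67 to -1.10 and were likewise above it. Hoxa3 and Hoxa7 changed least among the genes that fell (-0.43 ± 0.091 and -0.46 ± 0.13). Whether a low signal above the floor is transcript of that gene or binding of other RNA to its probes was not tested.

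Hoxc13, a gene of hair and nails, was the member that was higher. It was at the floor on all 13 culture and partial arrays and at 6.15 in the OSK wt clone, 6.81 and 7.31 in the OSK ko clones and 7.92 and 6.92 in the OCK ko clones, at least 2.60-fold higher than in early cultures (limma adjusted p = 2e-05). It entered the test through the iPSC arrays alone, the group where it is high. Hoxb13, its cluster B paralog, known from the prostate and the tail tip, was at 6.80 and 7.50 in the OSK ko clones, at 5.70 in OCK ko clone 1 and at the floor elsewhere. Its difference from early cultures did not pass (0.61 ± 0.29, adjusted p = 0.0608), and it passed when OCK ko clone 1, OCK ko clone 2 or the OSK wt clone was left out (adjusted p between 0.0225 and 0.0257).

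All 14 fibroblast markers were lower in iPSC clones than in early cultures (median difference -5.45), and 7 of 9 tested macrophage and blood markers were lower too. Their part in the fall of the Hox genes was not tested. Within Tcf3 ko OCK arrays alone, 21 Hox genes were lower, where 29.2% of all genes were, and 1 was higher, where 33.5% were. Hoxa7 lost its call there (adjusted p = 0.0652) and with day 11 alone as the early cultures (0.0524). A stricter setting tested only genes never at the floor, and all 11 Hox genes among them were lower, where 33.5% of all such genes were.

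**Figure D3:**
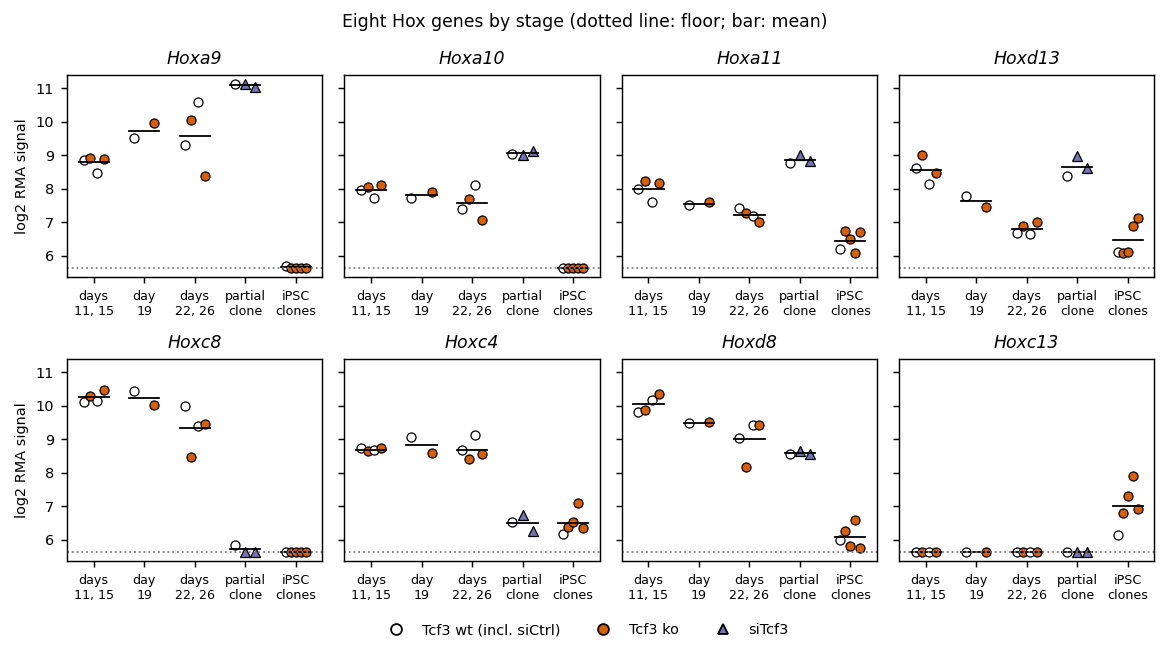
Log2 RMA signal (y axis) of 8 Hox genes by stage (x axis), 1 point per array, with the stage mean as a bar and the floor as a dotted line; Tcf3 ko arrays are filled orange, siTcf3 arrays are purple triangles. Hoxa9, Hoxa10, Hoxa11 and Hoxd13 are high in the partial clone, where Hoxc8 is at or near the floor and Hoxc4 is as low as in the iPSC clones.

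The partial clone had high signal of cluster A genes from Hoxa5 to Hoxa11, and low signal of cluster C. Against the iPSC clones, 12 of 21 tested Hox genes were higher, where 26.3% of all genes were higher, and 2 were lower, where 35.8% were lower. All 7 tested genes of cluster A were among the higher ones, with 2 of 6 in B, 1 of 5 in C and 2 of 3 in D. Hoxa10 and Hoxa13 entered the test through the partial arrays alone, and Hoxa2 and Hoxa4, at the floor in both groups, were not tested, so the filter partly sets the count for cluster A. No iPSC clone was both OCK and Tcf3 wt. Stage therefore cannot be told apart from genotype and factor set in this comparison. Hoxa9 was at 11.12 with siCtrl and at 11.14 and 11.06 with siTcf3-A and siTcf3-B, the highest values it had on any array, 43.7-fold above the iPSC clones (limma adjusted p = 1.91e-10). With 4 of those 5 clones at the floor the fold is a lower limit for this probe set, and with the mean of its probe sets it was 16.7-fold. Hoxa10 was at 9.04, 9.02 and 9.13, at least 10.7-fold above the iPSC clones for the probe set used (limma adjusted p = 1.46e-11). Under the alternatives, which include the mean of its probe sets, the Hoxa10 difference was 1.71 to 3.53 log2. Hoxa11 was at 8.77, 9.0 and 8.82, 5.32-fold higher, and Hoxa5 was at 8.94, 8.91 and 8.91, 7.26-fold higher. For Hoxa5 the iPSC clones ranged from the floor to 6.94, the value of the OSK wt clone, so its fold depends on the clone. Between the siCtrl array and that wt clone alone, the Hoxa5 difference was 2.00 log2, without a test. Hoxa13, of the digits and hindgut, was at 6.32, 6.13 and 6.40 and at the floor on the other 15 arrays, at least 1.56-fold higher.

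Outside cluster A, Hoxd8 (5.67-fold), Hoxd13 (4.58-fold), Hoxb6 (at least 2.57-fold), Hoxb4 (1.77-fold) and Hoxc9 (1.36-fold) were higher in the partial clone than in iPSC clones. Under the alternatives the Hoxd13 difference was 1.19 to 2.36 log2. Hoxc13, at the floor in the partial clone, was at least 2.60-fold lower. Hoxb6 entered this test through the partial arrays alone and Hoxc13 through the iPSC arrays alone. Hoxc6 was lower too (-0.37 ± 0.14, adjusted p = 0.0325). That call ended without any 1 of the 3 partial arrays, the OSK wt clone or OSK ko clone 2, and with median centring, the mean of probe sets or the plain prior. The Hoxc9 call ended without the siCtrl array (adjusted p = 0.0529).

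Set against late cultures, which share the partial arrays with the comparison above, 6 of 24 tested Hox genes were higher in the partial clone, where 25.3% of all genes were higher, and 10 were lower, where 24.1% were lower. The higher ones were Hoxa7, Hoxa9, Hoxa10, Hoxa11, Hoxa13 and Hoxd13, a share close to that of all genes. Of the 10 tested genes numbered 9 to 13, 5 were higher and 3 lower. The lower ones were Hoxa2, Hoxb2, Hoxb3, Hoxb9, Hoxc4, Hoxc5, Hoxc6, Hoxc8, Hoxc10 and Hoxd9. Hoxa2, Hoxc5 and Hoxc10 entered this test through the late cultures alone, and Hoxa13 through the partial arrays alone. Cluster A had a median difference of 0.79, with 5 of 8 genes higher, and cluster C a median of -1.14, with 5 of 6 lower. Over all genes the median was 0.032. With arrays centred on their medians it was 0.19, and the share of higher genes among all calls went from 51.3% to 68.7%, while 6 Hox genes were higher and 9 lower.

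Hoxd13 was at 8.38, 8.99 and 8.62 in the partial clone and at 6.67, 6.88, 6.65 and 7.01 in late cultures, 3.63-fold higher (limma adjusted p = 1.27e-05). Under the alternatives, which include the mean of its probe sets, the difference was 1.06 to 2.04 log2. Hoxa11 was at 7.44, 7.27, 7.20 and 7.01 in late cultures and 3.10-fold higher in the partial clone (adjusted p = 6.87e-07). Both genes had fallen from day 11 to day 26, and in the partial clone they lay in or above the range of the early cultures. Hoxa9 was 2.86-fold and Hoxa10 2.79-fold higher than in late cultures, with every partial array above every culture array. Under the alternatives the Hoxa10 difference was 0.74 to 1.66 log2. Hoxa7 was 1.92-fold higher.

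Hoxc8 was at 9.99, 8.48, 9.39 and 9.46 in late cultures and in the partial clone at 5.85 with siCtrl and at the floor with both siTcf3 siRNAs, a difference of -3.62 ± 0.23 (adjusted p = 1.49e-09). Hoxc4 was at 6.54, 6.74 and 6.27 in the partial clone and between 8.42 and 9.12 in late cultures, a difference of -2.18 ± 0.19 (adjusted p = 1.09e-07). Its partial and iPSC values overlapped (difference 0.0038 ± 0.18, adjusted p = 0.990). Hoxc6 (-1.41) and Hoxb2 (-1.40) were lower, and Hoxc10 was at the floor in the partial clone (at least 1.81-fold lower). Hoxb3 was lower as well (-0.57), a call lost with median centring (adjusted p = 0.0525) and without the siCtrl array (0.0537). The Hoxc5 call was lost with the mean of probe sets (-0.21, limma adjusted p = 0.104).

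Cluster D did not move as 1 block in the partial clone. Hoxd8 was at 8.56, 8.64 and 8.56, inside the late culture range of 8.18 to 9.43 (-0.43 ± 0.25, adjusted p = 0.167). Hoxd9, the next gene, was at 6.36, 6.72 and 6.49 against 7.08 to 8.02, a difference of -1.13 ± 0.21 (adjusted p = 0.00025). Hoxd10 was at the floor in the partial clone, but it reached no more than 5.70 in late cultures either. Hoxd13, at the cluster's end, was higher. Left without ko day 22, or against wt late cultures alone, Hoxd8 and Hoxb6 were also called lower.

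**Figure D4:**
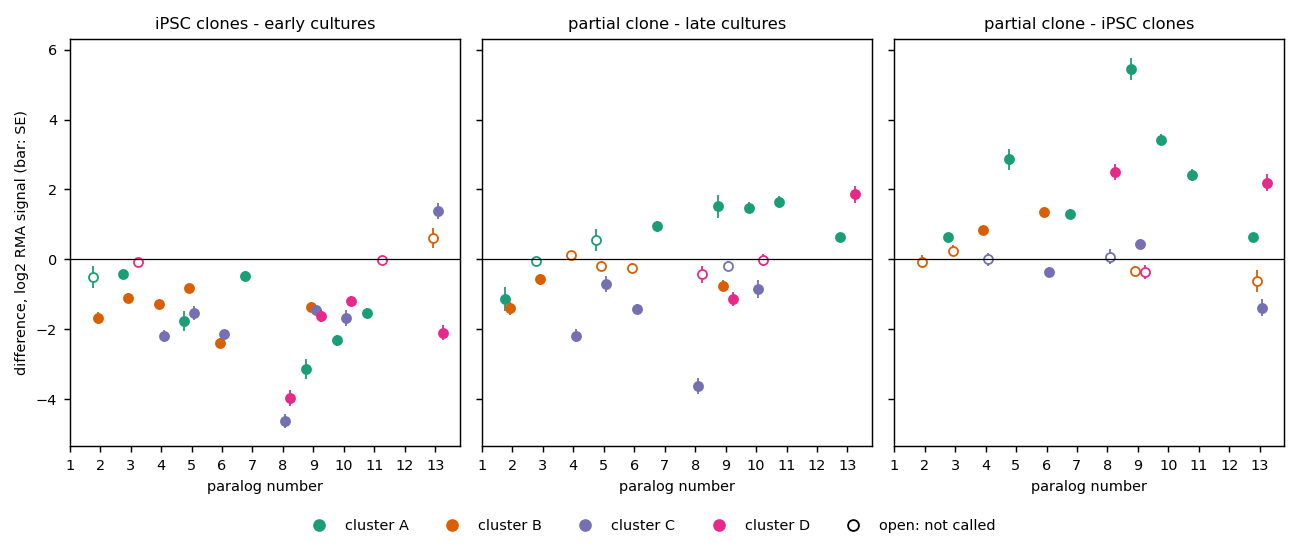
Differences in log2 RMA signal (y axis, bars are SE) of each tested Hox gene by paralog number (x axis) and cluster (colour), for iPSC clones minus early cultures, partial clone minus late cultures and partial clone minus iPSC clones; filled points passed limma at 0.05 after adjustment over all genes. Cluster A points lie above 0 in the right panel, and in the middle panel those numbered 7 to 13 lie above 0 while 6 of 6 tested cluster C points lie below it, 1 of them not called.

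The 14 fibroblast markers were all lower in the partial clone than in late cultures (median difference -2.59), and 10 of 12 neuronal markers were lower, so the cultures held more signal of both kinds. Their part in the lower Hox genes was not tested. Against late cultures of wt alone, the genotype of the partial clone, 6 Hox genes were higher, where 20.7% of all genes were, and 12 lower, where 20.5% were.

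Within the partial clone the siRNAs against Tcf3 changed no Hox gene that passed. Tcf7l1 itself was at 9.93 with siCtrl and at 8.80 and 8.77 with siTcf3-A and siTcf3-B, lower but far from the floor. The comparison therefore covers a partial loss of its signal on day 2. Limma called 0 of 19 tested Hox genes, where 0.111% of all genes were called, and 0 Hox genes but 1602 of 12636 genes had an unadjusted p under 0.05. The largest differences were those of Hoxb3 (0.44 ± 0.18), Hoxd13 (0.42 ± 0.18), Hoxb2 (-0.33 ± 0.25) and Hoxb6 (0.32 ± 0.14). With the prior taken over all genes 1 member, Hoxc8, was called lower: it was at 5.85 with siCtrl and at the floor with both siRNAs. With 1 siCtrl array, the spread in these tests comes from the clone groups that have 2 arrays.

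Among the OSK clones, limma called 0 of 17 Hox genes between ko and wt, where 0.687% of all genes were called, and 1623 of 12670 genes had an unadjusted p under 0.05. The Hox genes at that level were Hoxa5, at 6.94 in the wt clone and 6.07 and 5.72 in the ko clones (-1.04 ± 0.18, adjusted p = 0.0759), and Hoxb13, at the floor in wt (at least 2.85-fold higher in ko, adjusted p = 0.0759). Cdx1, a Wnt-responsive activator of Hox genes, was at the floor in the OSK wt clone, in all cultures and in the partial clone. It was at 8.23 and 8.29 in the OSK ko and 6.88 and 7.57 in the OCK ko clones. Like Hoxb13, Cdx1 entered the test between OSK clones through the ko arrays alone. It passed between ko and wt OSK clones (at least 6.12-fold higher in ko, adjusted p = 0.0231), with the spread taken from other clone groups since wt is 1 clone. Limma called 0 of all genes without OSK ko clone 1 (913 genes at an unadjusted p under 0.05), without clone 2 (879 genes), and when the 5 iPSC arrays were fitted alone (1300 genes).

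Between OCK ko and OSK ko clones, 2 of 16 tested Hox genes differed, where 10.7% of all genes did. Hoxb13 was lower in the OCK ko clones (5.70 and the floor against 6.80 and 7.50; -1.48 ± 0.22, limma adjusted p = 0.0148). Hoxd13 was higher in them (6.89 and 7.13 against 6.10 and 6.10; 0.91 ± 0.15, adjusted p = 0.0189). Neither call was firm. With clone number as a block 0 Hox genes passed, and calls over all genes went from 1377 to 142. With the prior taken over all genes 0 Hox genes passed, and 528 of all genes did. Leaving out a clone leaves 1 clone in its group, so sizes alone are given. Without OSK ko clone 1 the differences were -1.83 for Hoxb13 and 0.91 for Hoxd13. Without OSK ko clone 2 they were -1.13 and 0.91.

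Genes that act with or on the Hox clusters are given from lists. Over all genes tested, 33.6% were lower and 41.8% higher in iPSC clones than in early cultures, and 24.1% lower and 25.3% higher in the partial clone than in late cultures. Of 8 TALE cofactors on the array, 3 were lower in iPSC clones than in early cultures, Meis1 (at least 4.22-fold, at the floor in all 5 clones), Meis3 (-1.27 ± 0.11) and Meis2 (-0.97 ± 0.35), and 2 were higher, Pbx2 (1.02 ± 0.13) and Pknox1 (0.61 ± 0.078). Pknox2 was at 10.79, 10.75 and 10.62 in the partial clone and at 6.06 to 7.87 on the other arrays, 3.36 ± 0.29 above late cultures (limma adjusted p = 8.65e-08). Meis1 was lower in the partial clone than in late cultures (-1.47 ± 0.19).

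Of 18 chromatin regulators of Hox genes, 9 rose and 0 fell over the culture days, where 18% of all genes rose and 18.7% fell, and 11 were higher and 4 lower in iPSC clones than in early cultures, a median difference of 1.14. The Polycomb genes Cbx7 (3.94 ± 0.15), Jarid2 (3.81 ± 0.20), Phc1 (3.12 ± 0.23) and Ezh2 (3.11 ± 0.17) were among those higher. In the partial clone 5 were higher and 11 lower than in iPSC clones, where 26.3% and 35.8% of all genes were, and 6 were higher and 4 lower than in late cultures. There Phc1 was at 11.98, 11.88 and 11.85, while Cbx7 was at 6.36, 6.17 and 6.34, below its 9.67 to 10.33 in iPSC clones (-3.73 ± 0.16, adjusted p = 8.17e-12).

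Of 15 retinoic acid pathway genes, 9 were lower and 1 higher in iPSC clones than in early cultures, with the synthesis enzymes Aldh1a1 (at least 20.2-fold) and Aldh1a3 (at least 11.7-fold), both at the floor in all 5 clones, and the binding protein gene Crabp1 (-3.19 ± 0.22) among the lower ones. Against late cultures, 2 of the 15 were higher and 7 lower in the partial clone. Cyp26a1, which breaks down retinoic acid, was at 8.53, 8.59 and 8.61 in the partial clone and at 5.64 to 5.75 on the other arrays. It was 2.91 ± 0.11 above late cultures, of which 3 of 4 were at the floor (limma adjusted p = 3.79e-12).

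Other homeobox and T-box genes known for position were counted in the same way. Of 24 tested, 17 were lower and 3 higher in iPSC clones than in early cultures, the mesenchymal genes Prrx1 (-4.98 ± 0.33), Tbx15 (-4.67 ± 0.15), Tbx18 (-4.47 ± 0.12) and Shox2 (at least 22.1-fold) among them. Shox2 was at the floor in all 5 iPSC clones, Tbx18 in 4, and Prrx1 and Tbx15 in 1, so these sizes are lower limits and have no order. In the partial clone 9 of 24 were higher and 8 lower than in late cultures. Tbx4, a hindlimb gene, was at 9.63, 9.09 and 9.12 there and at 6.48 to 7.61 in the cultures (2.22 ± 0.21 above late cultures, adjusted p = 2.74e-07), and Irx5 was 2.55 ± 0.21 above them. Shox2 (-3.38 ± 0.11, with 2 of 3 partial arrays at the floor) and Prrx1 (-3.19 ± 0.38) were lower.

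Probe sets of 1 gene did not always give the same picture. A second Hoxa9 set gave 9.39 to 9.72 in the partial clone, 7.07 to 8.34 in late cultures and 6.61 to 7.09 in iPSC clones, where the set used was at or near the floor. A second Hoxd13 set was above the floor on 6 arrays, reaching 6.16 in the partial clone and 5.85 in iPSC clones, and with the mean of both sets the Hoxd13 difference between OCK ko and OSK ko clones did not pass (adjusted p = 0.0918). A second Hoxb3 set was at the floor in all iPSC clones, and a second Hoxc6 set varied little, between 6.06 and 6.94 over early cultures, late cultures, partial and iPSC arrays. Further sets of Hoxa3 and Hoxa10 and 1 further set of Hoxc5 were at the floor on all 18 arrays. Between iPSC clones and early cultures, the alternatives gave -2.44 to -1.16 for Hoxa10 and -2.34 to -1.04 for Hoxd13.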

How the data were processed

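The deposited table contained log2 signals that the authors computed with RMA, per the submitters' processing notes, for each probe set on each of the 18 arrays; which version was used is not stated in these sources. On each array 44.9% to 46.6% of probe sets had the same lowest value, 5.64, a floor no label names. Of 40508 probe sets, 31076 had 1 symbol in the platform annotation, 636 had several and 8796 are unnamed here.

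All genes were tested with limma 3.58.1 (R 4.3.3), Benjamini-Hochberg adjustment at 0.05. Because of the floor, the prior variance came from genes that never touched it in a fit, genes with a floored array got at least that variance, and genes at the floor on all compared arrays were not tested. The plain prior over all genes is an alternative. The 10 culture arrays were fitted with straight lines per genotype, or with day as a block for ko minus wt; stages were fitted with 1 mean each over all 18 arrays; the iPSC and partial groups were fitted together over 8 arrays. The code was tested on simulated data. An "at least" fold takes a group at the floor at 5.64, and a positive difference means the group named first is higher.

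The Hox genes and the gene lists were chosen with earlier results of these data known. Described by array were the 12 Hox genes with the widest range and those called in a comparison, with others by counts. List genes are the few with the largest differences, apart from Tcf7l1 and Col1a1. Also apart are Tbx4, the Meis1 and Meis2 levels on day 26, and Bmi1, Phc2 and Cbx8, which were chosen after their values were seen. Same-numbered OCK ko and OSK ko clones did not deviate together (r = -0.129 across 11603 genes, which are not independent replicates). Alternatives were the plain prior, quantile normalization, median centring, averaging the probe sets of a gene, a floor filter, leaving out arrays or days, and narrower sets of arrays.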

Additional observations from a re-analysis of the deposited data

Results flagged for a closer look

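A test for a single array that lies apart from the other 4 of its culture series was run for each Hox gene. By chance it picks about 1 in 20 series of independent values from 1 normal distribution. The arrays here follow a time course and some lie at the floor, so that rate need not hold. In the wt series, day 26 lay above the other days for Hoxa2 (8.15 against 5.85 to 6.51) and Hoxa3 (7.64 against 6.99 to 7.16). Day 22 lay below the other wt days for Hoxb4 (6.77 against 7.36 to 7.52) and Hoxc10 (5.79 against 7.14 to 7.58). The remaining values lay close to the floor: Hoxd3 at 5.70 on wt day 11 and at 5.83 on ko day 15, and Hoxd11 at 5.76 on ko day 11.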

How the results depend on the processing

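The 80 single-gene values were recomputed 1022 times under the alternatives. Of these, 950 kept their side of the threshold, or stayed close where no test was run, and 0 that passed reversed. A change of sign was not counted where neither value passed: Hoxa2 in ko minus wt cultures ranged from -0.60 to 0.13. For the change per day, the 9 called Hox genes became 4 with the plain limma prior and 3 in the line through the day means. Leaving out 1 day gave 0 to 13. The share of all genes that fell went from 18.7% to 9.57% with the plain prior and 1.25% in that line. With 1 day left out it was 0% to 19.8%. Testing only genes never at the floor leaves fewer genes to test. For iPSC clones against early cultures, 23 of 27 Hox genes called became 11 of 11. For the partial clone, 14 of 21 became 8 of 11 against iPSC clones, and 16 of 24 became 7 of 11 against late cultures. Over all genes, calls in these comparisons went from 10413 of 13814 to 8293 of 10284, from 8435 of 13571 to 6928 of 10284, and from 6654 of 13481 to 5272 of 10284. Between OCK ko and OSK ko clones, 2 calls became 0 with the plain prior, 1 with the mean of probe sets, 1 with only genes never at the floor, 0 with clone number as a replicate block and 0 to 6 when 1 clone was left out. In the 4 ko clones, the block took the calls over all genes from 1377 to 142, and crossed numbers, added after the data were seen, to 2 with 0 Hox genes. After siTcf3 the plain prior called 1 Hox gene instead of 0. Median centring moved the median of all genes from -0.0022 to 0.12 after siTcf3. The floor limits all low values, and single arrays per culture and day give no replicate of a day. The replicate block could be fitted for no other comparison, since no other groups share clone numbers.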
